A study of Mus musculus with 22 samples.

Results

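Tumors grown from MC38 cells, a mouse colon carcinoma line, were compared at the later of the 2 sampling days of each host. The comparison set 3 tumors from wild-type mice at day 46 after the injection against 3 tumors from mice labelled RAG1−/− at day 23, which are 6 of the 12 tumors in the deposited table, 6 of its 16 libraries and 6 of the 22 samples of the series. The wild-type hosts were C57BL/6N and the others B6.129S7-Rag1tm1Mom/J, all female, 8 to 12 weeks old when they were injected under the skin of the flank, and untreated. Each excised tumor was divided into pieces, of which one gave RNA, so a value describes 1 piece of 1 tumor. RNA was read near the 3′ end of each transcript (QuantSeq on an Ion Proton), and levels are the authors' normalized counts, reads divided by a size factor for the library. All members of the comparison are genes, and 14746 of the 46882 genes in the table entered the test because their mean over the 12 tumors reached 5 normalized counts.

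RAG1 is the recombinase that cuts DNA to assemble antigen receptor genes, and mice without it make no mature T or B cells, while their NK cells, macrophages and other innate cells develop. T cells and NK cells release interferon-γ, which acts on macrophages, vessel cells and tumor cells to switch on antigen presentation, guanylate-binding proteins and the chemokine CXCL9. A tumor also holds fibroblasts, endothelium and the smooth muscle-like cells around vessels, which a host without lymphocytes still supplies. The hosts limit the model in several respects. Host and day differ together here, since no tumor labelled RAG1−/− of day 46 was analysed, so genotype and day cannot be told apart. The mutation was made in stem cells of another strain, so genes near Rag1 can carry alleles of that strain, and its background is of the J substrain rather than the N substrain of the controls. In a whole piece of tumor, fewer cells of a type and less RNA per cell also cannot be told apart.

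Libraries held 11963030 to 17104093 reads on genes in the wild-type tumors of day 46 and 5589151 to 26134241 in the tumors labelled RAG1−/− of day 23. In these 6 libraries 3 reads, used as a floor, were worth 1.33 to 6.38 normalized counts, the most in replicate 2 of the latter, the shallowest. Mitochondrial transcripts took 5.54% to 10.4% of the reads in wild type and 10.1% to 11.2% in the tumors labelled RAG1−/−, and the part of this in the results was not tested. The summed level of 13 mitochondrially encoded genes did not overlap, at 255246 to 308856 normalized counts in wild type and 346334 to 408483 in the others. Of the 8 of them tested 2 lay above 0, with a median log2 fold change of −0.39 and none called by limma (0 at an unadjusted p under 0.05) or DESeq2. The labels call the samples tumor cells, but the macrophage gene Adgre1 (602 to 973 normalized counts), the endothelial gene Pecam1 (79.9 to 271) and the fibroblast gene Col1a1 (731 to 11095) were read in all 6 tumors, against at most 28.4 in MC38 cells in culture. Rag1 (chromosome 2, 101638282 to 101649501, minus strand, GRCm38) had 0, 0 and 1 read in the wild-type tumors and 4, 1 and 4 reads in those labelled RAG1−/−. These few reads go against the labels, and 3′ reads need not lie in the part that was removed, so Rag1 checks nothing and every direction below rests on the labels. The T cell receptor gene Trac, named after its values were seen, and the immunoglobulin gene Igkc ran as labelled. Trac had no read in the tumors labelled RAG1−/− and Igkc had 1, 0 and 4, against 137 to 243 normalized counts of Igkc in wild type. Other receptor genes did not all separate, since Trbc2 and Ighm, described below, overlapped between the hosts.

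Between the late tumors 12 genes (0.0814% of those tested) had an adjusted p under 0.05, 8 with higher and 4 with lower levels in wild type (limma on log2(normalized count + 1), two-sided, Benjamini-Hochberg over all genes tested), which is 0.0543% and 0.0271% of the genes tested. The higher genes were Igkc, Igha, Cxcl9, Npr1, Lck, Iigp1, Mylk and Ly6a. The lower genes were Khdrbs2, Epha7, Id4 and Tnfrsf26. An unadjusted p under 0.05 was found for 1588 genes (10.8%, of which 6.14% higher and 4.63% lower), and the 3 and 3 tumors did not overlap for 1909 genes (12.9%), 7.08% higher and 5.87% lower. The median log2 fold change of all genes tested was 0.02, and 52.1% of them lay above 0. With all libraries brought to an equal total the median was 0.09, and 10 genes were higher and 2 lower.

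DESeq2 on the recovered reads called 105 genes higher and 67 lower (0.712% and 0.454%), among them all 12. The quasi-likelihood test of edgeR on the same reads called 4 higher and 2 lower (0.0271% and 0.0136%), namely Cxcl9, Igkc, Igha, Iigp1, Tnfrsf26 and Epha7. With the replicate number as a block in the 6 late tumors alone, limma called 45 higher and 13 lower, among them 11 of the 12. That alternative was added after seeing the data, and the labels do not say what the number marks. Leaving out each tumor in turn gave 3 to 28 higher and 1 to 11 lower, the fewest without replicate 1 of the tumors labelled RAG1−/−. In that fit 4 of the 12 remained, Cxcl9, Igkc, Igha and Tnfrsf26. All 12 kept their direction in every alternative that gave them a value.

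**Figure D1:**
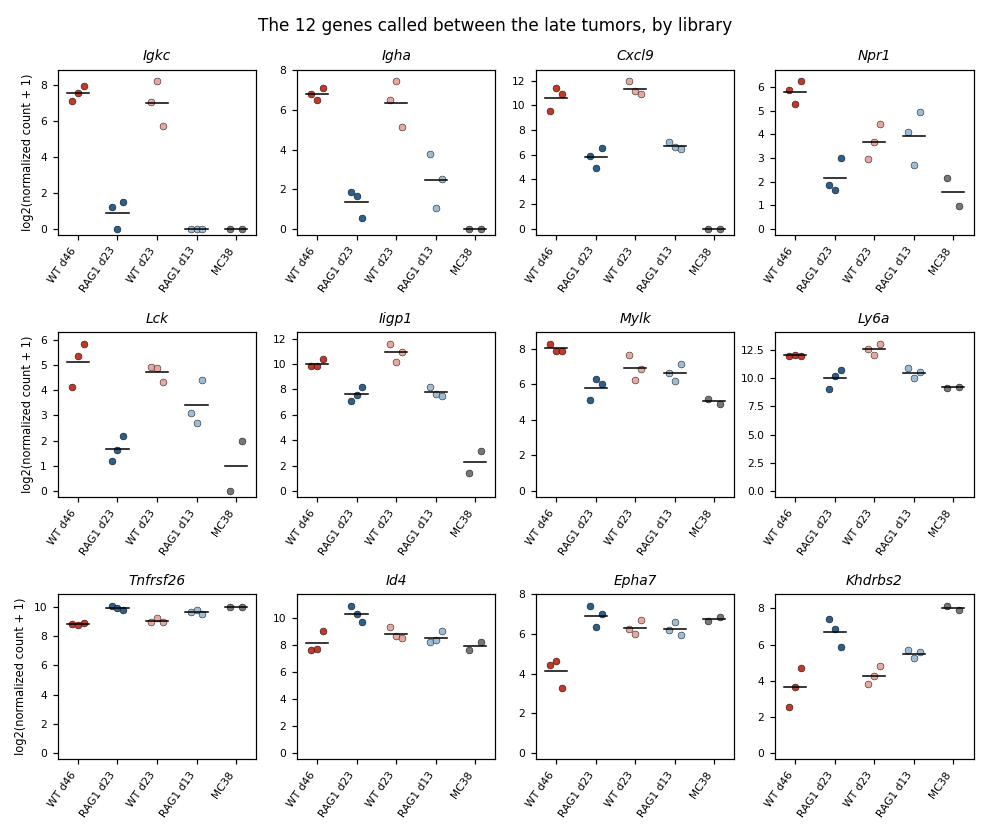
Level of each of the 12 called genes in single libraries, as log2(normalized count + 1), in wild-type tumors of day 46, tumors labelled RAG1−/− of day 23, the earlier tumors of both hosts and cultured MC38 cells, with the group mean as a line. In each panel the 3 red and 3 dark blue points of the late tumors do not overlap, while the paler early points separate in the same way for Cxcl9, Igkc, Igha, Iigp1, Ly6a, Tnfrsf26 and Khdrbs2 but not for Lck, Mylk, Npr1, Epha7 or Id4.

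Cxcl9, the interferon-γ-induced chemokine that draws T cells through the receptor CXCR3, was 29.3-fold higher in the wild-type tumors. Its levels were 736, 2709.9 and 1917 normalized counts in wild type and 58.9, 29.8 and 94.6 in the tumors labelled RAG1−/−. The lowest wild-type tumor was thus well above the highest of the others (log2 fold change 4.80 ± 0.44 SE, limma adjusted p = 0.000118). The gene lies on chromosome 5 at 92321347 to 92328079 on the minus strand (GRCm38), and MC38 cells in culture had 0 reads of it in both libraries. The 250 bases before its start are shown because Cxcl9 was the called chemokine and held a match to a motif of NF-κB, a factor of inflammatory signalling. In RefSeq sequence of GRCm38.p6 (chr5:92328080-92328329, minus strand, read 5′ to 3′) the capitals mark the match, 130 to 121 bases before the start. The motif was GGGA, any 4 bases and CC, searched on both strands and here read on the other one.
Cxcl9: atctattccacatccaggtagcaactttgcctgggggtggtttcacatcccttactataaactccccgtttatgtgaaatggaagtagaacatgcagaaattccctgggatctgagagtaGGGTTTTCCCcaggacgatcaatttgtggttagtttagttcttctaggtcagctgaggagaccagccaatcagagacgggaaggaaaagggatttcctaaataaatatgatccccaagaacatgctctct
Such a match was held by 17.3% of 27025 promoters of this length and by 22.3% of the 9956 that belong to tested genes, and it says nothing of whether the factor was bound. The interferon motifs GAS and ISRE, spelled out below, were searched in the same bases of Cxcl9 and had no match.

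Of 13 tested CXC chemokine genes Cxcl9 was the 1 called by limma, 6 lay above 0 and the median log2 fold change was −0.45. DESeq2 called 2, Cxcl9 and Cxcl13, the chemokine that draws B cells into follicles. Cxcl13, named after its values were seen, had 0, 34.2 and 33.9 normalized counts in wild type and no read in the others, so replicate 1 of wild type overlapped them (limma adjusted p = 0.329 and 0.0178 from DESeq2). Cxcl10, another interferon-induced ligand of CXCR3, had 1077, 1243 and 1359 normalized counts in wild type and 1643, 1551 and 1814 in the tumors labelled RAG1−/−. These groups did not overlap, with wild type on the low side (log2 fold change −0.45 ± 0.24 SE, limma adjusted p = 0.536). Among 17 tested CC chemokines none was called by limma or DESeq2, 3 had an unadjusted p under 0.05 in limma, and the median was 0.15. Ccl5, which attracts T cells, NK cells and monocytes, had 549, 549 and 1213 in wild type and 1139, 911 and 1859 in the others, so the groups overlapped (log2 fold change −0.80 ± 0.29 SE, limma adjusted p = 0.347).

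Immunoglobulin transcripts had the largest fold changes among the called genes. Igkc, the constant region of the κ light chain (chromosome 6, 70726435 to 70726966, plus strand), stood at 137, 184 and 243 normalized counts in wild type. In the tumors labelled RAG1−/− it had 1, 0 and 4 reads, or 1.31, 0 and 1.77 normalized counts, far below wild type (log2 fold change 6.63 ± 0.62 SE, limma adjusted p = 0.000118). Igha, the constant region of IgA (chromosome 12, 113254830 to 113260236, minus strand), was at 109, 90.0 and 138 in wild type against 2.62, 2.13 and 0.442 (2, 1 and 1 reads), a log2 fold change of 5.46 ± 0.69 SE (limma adjusted p = 0.00389).

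Of 13 listed immunoglobulin genes 6 were tested, all 6 lay above 0, and 5 did not overlap (7.08% of all genes tested on that side), with a median log2 fold change of 3.73. Genes with few reads in the tumors labelled RAG1−/− passed the filter largely through wild type, so these counts are no test of direction. Ighg2c, an IgG heavy chain, had 10.8, 22.8 and 26.4 normalized counts in wild type and 0, 0 and 0.442 in the others (limma adjusted p = 0.105). Jchain, which links IgA and IgM units, had 16.1 to 23.5 against 0 to 3.93 (limma adjusted p = 0.173). The exception was Ighm, the IgM heavy chain, whose groups overlapped at 50.8, 126 and 201 against 35.3, 29.8 and 94.1 (log2 fold change 1.21 ± 0.71 SE, limma adjusted p = 0.571). Ms4a1, the gene of the B cell surface protein CD20, had at most 4 reads in each of the 6 tumors. Of the 3 tested members of the B and plasma cell list none was called (0 at an unadjusted p under 0.05 in limma, 0 with DESeq2), with a median of 0.08.

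Lck, the kinase that starts signalling from the T cell receptor (chromosome 4, 129548344 to 129573641, minus strand), was 16.3-fold higher in the wild-type tumors. It had 16.6, 40.3 and 56.5 normalized counts there and 1.31, 2.13 and 3.53 in the tumors labelled RAG1−/−, where it had 1, 1 and 8 reads (log2 fold change 3.44 ± 0.60 SE, limma adjusted p = 0.0463). Cd3e, a chain of the receptor complex, had 3.91, 18.8 and 23.2 in wild type and no read in the others, at least 3.95-fold higher against a floor of 3 reads per library (limma adjusted p = 0.092). Cd8a, the coreceptor of cytotoxic T cells, had 5.86, 14.1 and 30.8 against 0, 0 and 0.442 (limma adjusted p = 0.092). In both the lowest wild-type value was that of replicate 1.

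Of the 27 listed T cell genes 13 were tested, and Lck alone was called by limma. All 13 lay above 0 and DESeq2 called 7. Of these 13, 8 did not overlap, all on the high side, where 7.08% of all genes tested did so. Members with few or no reads in the tumors labelled RAG1−/− passed the filter largely through wild type, so these counts are no test of direction. Their median log2 fold change was 2.80, or 1.98 when the 4 genes without a read in the tumors labelled RAG1−/− were set to their bounds, and it ranged from 2.26 to 3.05 when single tumors were left out. Trac, the constant region of the α chain (named after its values were seen), had 51.8, 9.40 and 5.02 against no read, so here replicate 1 of wild type was the highest (limma adjusted p = 0.114). Trbc2, a β chain constant region, had 6.84, 47.0 and 67.2 against 7.86, 4.26 and 5.30 and overlapped. Thy1, which fibroblasts also carry, had 105, 379 and 117 against 26.2, 147 and 69.8 and overlapped too. The summed level of the list was 254 to 713 in wild type and 47.1 to 181 in the tumors labelled RAG1−/−. Thy1 made up a large part of these sums in both hosts, so they do not describe T cells alone. Foxp3, the factor of regulatory T cells, had 0, 9.40 and 4.39 against no read, and of 5 tested genes of that list none was called (0 at an unadjusted p under 0.05, 0 with DESeq2).

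Genes of NK cells and of killing were described by smaller values. Of 9 tested NK cell genes 3 lay above 0 and none was called by limma or DESeq2 (3 at an unadjusted p under 0.05 in limma), with a median log2 fold change of −0.31. The genes of the receptors NKG2A (Klrc1, log2 fold change 3.22, limma adjusted p = 0.114) and NKG2D (Klrk1, 2.22, limma adjusted p = 0.253), which T cells also carry, were named after their values were seen and did not overlap, both with wild type on the high side. The third gene with a low unadjusted p was Klra4, with wild type on the low side. The summed level of that list, 2776 to 6111 in wild type and 5011 to 8233 in the others, came mostly from Klra4, which MC38 cells in culture also carry at 3319.8 and 3846 normalized counts. Ncr1, the defining NK cell marker, had 0 to 6.63 normalized counts in the 6 tumors. Of 12 tested cytotoxic effector genes none was called by limma (2 at an unadjusted p under 0.05), 6 lay above 0 and the median was −0.09. Gzmc, a granzyme, had 82.1, 187 and 122 in wild type and 268, 349 and 701 in the tumors labelled RAG1−/−, without overlap (log2 fold change −1.70 ± 0.38 SE, limma adjusted p = 0.104, 0.0370 with the replicate block in the 6 late tumors alone, and 0.00148 from DESeq2).

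Checkpoint molecules had a median log2 fold change of 0.36 over 14 tested genes, with none called by limma (4 at an unadjusted p under 0.05) and 1 by DESeq2. Cd274, the gene of PD-L1, had 138, 251 and 276 normalized counts in wild type and 137, 121 and 103 in the tumors labelled RAG1−/−. All 3 wild-type tumors lay above the others (log2 fold change 0.82 ± 0.29 SE, limma adjusted p = 0.328). Pdcd1, the gene of its receptor PD-1, had 3.91, 19.5 and 12.6 against 2.62, 0 and 1.77 (log2 fold change 2.36 ± 0.75 SE, limma adjusted p = 0.287). Ctla4 had 2, 17 and 22 reads in wild type and none in the others, at least 2.34-fold higher (exact permutation p = 0.1, two-sided, the smallest that 3 against 3 tumors allow). Havcr2, the gene of TIM-3, which macrophages carry as well, had 109, 117 and 160.1 against 96.9, 115 and 115 and overlapped (log2 fold change 0.22, limma adjusted p = 0.792). Lag3 had at most 3 reads in each of the 6 tumors, too few to show a difference.

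Iigp1, an interferon-inducible GTPase that attacks the vacuoles of intracellular parasites, was 5.16-fold higher in wild type. Its levels were 899, 913 and 1343 normalized counts in wild type and 135, 187 and 289 in the tumors labelled RAG1−/−, far apart (log2 fold change 2.41 ± 0.34 SE, limma adjusted p = 0.00846). MC38 cells in culture had 1.71 and 7.82. Of 22 listed genes of this GTPase group 19 were tested and 17 lay above 0, with Iigp1 called by limma and 2 called by DESeq2. In this group 7 did not overlap, all on the high side, where 7.08% of all genes tested did so. The median was 0.90 (0.61 to 1.10 with single tumors left out, the lowest without replicate 3 of wild type). Igtp, named after its values were seen, had 619.6, 682 and 1308 against 268, 351 and 515, without overlap (log2 fold change 1.17 ± 0.33 SE, limma adjusted p = 0.198, 0.0229 with the replicate block in the 6 late tumors alone). Gbp2, a guanylate-binding protein, overlapped at 518, 1250.2 and 1950.0 against 405, 513 and 967. Its relative Gbp7 did not overlap at 784, 722 and 1200.4 against 475, 602 and 558 (limma adjusted p = 0.494 and 0.327).

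Type I interferon-stimulated antiviral genes were mostly below 0. Of 31 tested members 8 lay above 0 and 23 below, where 52.1% of all genes tested lay above 0. None was called by limma (5 at an unadjusted p under 0.05, all below 0), and DESeq2 called 1, Mx1, lower. The 2 that did not overlap, both with wild type on the low side, are near the share of all genes tested (5.87%). The median was −0.16, with −0.37 without replicate 3 of wild type and −0.0034 without replicate 3 of the tumors labelled RAG1−/−. Rsad2, which blocks virus budding, had 918, 696 and 919.8 normalized counts in wild type and 700.4, 851 and 1233 in the others (log2 fold change −0.11 ± 0.28 SE). Ifit1, which binds viral RNA, had 327, 229 and 591 against 321, 429.8 and 679 (log2 fold change −0.36 ± 0.39 SE). Mx1, a GTPase that acts against influenza virus, had 53.8, 44.3 and 137 against 264, 185 and 219.6, without overlap (log2 fold change −1.66 ± 0.42 SE, limma adjusted p = 0.151). Ifit1 and Mx1 were named after their values were seen.

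The promoters of one member of each group are shown because the groups hold interferon motifs at different shares. GAS, the interferon-γ-activated site, was searched as TTCNNNGAA and ISRE, the site of IRF factors, as GAAA, any 2 bases and GAAA, on both strands of the 250 bases before the start. RefSeq gave a promoter for 12 of the 19 tested GTPase genes, of which 11 held an ISRE (91.7%) and 7 a GAS (58.3%). Of 22 antiviral genes with a promoter 10 held an ISRE (45.5%) and 4 a GAS (18.2%), where 3.04% and 7.18% of all 27025 promoters did. In Igtp (chr11:58199306-58199555, plus strand, GRCm38.p6) the capitals mark a GAS 45 to 37 and an ISRE 34 to 25 bases before the start, and in Ifit1 (chr19:34640639-34640888, plus strand) they mark ISRE matches 104 to 95 and 85 to 76 bases before it, read on the other strand.
Igtp: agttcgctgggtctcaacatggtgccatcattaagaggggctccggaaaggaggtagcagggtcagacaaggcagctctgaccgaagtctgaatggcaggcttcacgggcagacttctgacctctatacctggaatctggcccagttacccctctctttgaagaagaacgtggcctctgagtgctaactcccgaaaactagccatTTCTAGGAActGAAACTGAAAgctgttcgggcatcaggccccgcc
Ifit1: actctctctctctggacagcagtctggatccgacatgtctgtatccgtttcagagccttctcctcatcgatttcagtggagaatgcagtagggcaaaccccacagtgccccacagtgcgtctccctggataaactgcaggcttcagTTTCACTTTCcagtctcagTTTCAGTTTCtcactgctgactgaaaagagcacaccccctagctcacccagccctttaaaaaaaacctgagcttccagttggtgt
Matches are descriptions of the sequence, and promoters and genes were chosen after the values were seen.

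**Figure D2:**
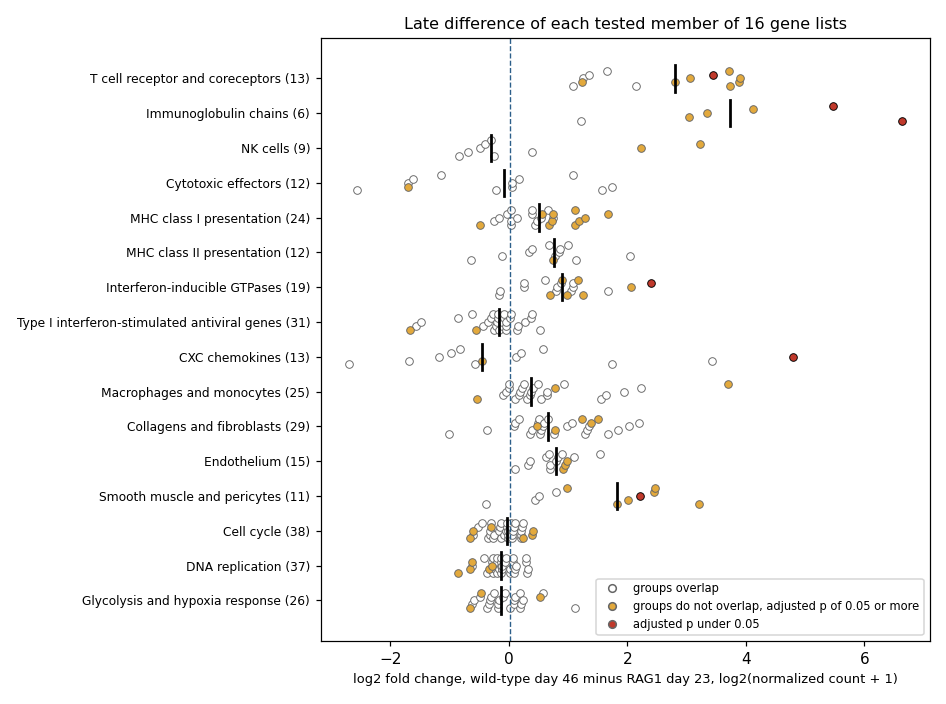
Late log2 fold change (wild-type day 46 minus RAG1−/− day 23) of each tested member of 16 gene lists, with the number tested in parentheses, the list median as a black bar and the median of all genes tested as a dashed line. Points of the GTPase list center at 0.90 and those of the antiviral list at −0.16, and T cell, immunoglobulin and smooth muscle genes lie furthest to the right.

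Presentation on MHC class I, by which tumor cells show peptides to cytotoxic T cells, had 20 of 24 tested genes above 0 and a median of 0.51 (0.28 without replicate 3 of wild type). Of these genes 9 did not overlap on the high side and 1 on the low side, where 7.08% and 5.87% of all genes tested did so. None was called by limma (11 at an unadjusted p under 0.05) and 5 were called by DESeq2. B2m, the light chain, had 69606, 63953 and 75604 normalized counts in wild type and 44033, 49519 and 69753 in the others, with overlap (log2 fold change 0.38, limma adjusted p = 0.535). H2-D1 had 20036, 17291 and 23004 against 8495, 12808 and 16257, without overlap (log2 fold change 0.72, limma adjusted p = 0.209). H2-K1 had 14121, 9214 and 14207 against 8311, 8349.6 and 8385, also apart (log2 fold change 0.56, limma adjusted p = 0.361). Nlrc5, which drives transcription of class I genes, had 177, 167 and 230.4 against 58.9, 74.5 and 103 (log2 fold change 1.29 ± 0.26 SE, limma adjusted p = 0.0736 and 0.00198 from DESeq2). The nonclassical genes H2-Q7 (log2 fold change 1.11) and H2-Q6 (1.67) did not overlap either, and limma with the replicate number as a block in the 12 tumors called both higher (limma adjusted p = 0.0472 and 0.0122), but they are near-identical copies whose reads can fall on the wrong one. Nlrc5, H2-Q6 and H2-Q7 were named after their values were seen.

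Ly6a, the gene of the surface protein Sca-1, which interferons induce and stem cells carry (chromosome 15, 74994877 to 74998031, minus strand), was 3.64-fold higher in wild type. The 3 wild-type tumors were close together at 4124, 4295 and 4075 normalized counts, and the others spread from 526 through 1158 to 1745 (log2 fold change 2.03 ± 0.35 SE, limma adjusted p = 0.0463). MC38 cells in culture had 566 and 602. MHC class II genes, which macrophages and dendritic cells use to show antigen to helper T cells, had 10 of 12 above 0 and a median of 0.76, with none called by limma or DESeq2 (4 at an unadjusted p under 0.05 in limma). H2-Aa ranged from 1564 to 11682 in wild type and from 1284 to 3573 in the others. Irf1, an interferon-induced transcription factor, had 1091, 1109.9 and 1662 against 746, 1015 and 1087, without overlap (log2 fold change 0.43, limma adjusted p = 0.474).

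Macrophage genes had small log2 fold changes. Of 25 tested genes 21 lay above 0, with a median of 0.38 and none called by limma (5 at an unadjusted p under 0.05), while DESeq2 called 1. Adgre1 had 602, 973 and 669 normalized counts against 706, 834 and 821, and Csf1r 1122, 1344 and 1161 against 809, 792 and 1440.5. Lyz2, lysozyme, had 6164 to 11684 against 7629 to 10824. Groups overlapped in all of these. Cd163, a scavenger receptor of resident macrophages named after its values were seen, had 17.6, 49.7 and 15.7 against 0, 2.13 and 1.33 (log2 fold change 3.69 ± 0.98 SE, limma adjusted p = 0.169 and 0.026 from DESeq2).

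Il1b, the inflammatory cytokine made by neutrophils and monocytes, had 285, 300.1 and 163 in wild type and 721, 743 and 418 in the tumors labelled RAG1−/−, without overlap (log2 fold change −1.33 ± 0.26 SE, limma adjusted p = 0.0727, 0.00824 with the replicate block in the 12 tumors, and 0.00063 from DESeq2). Of 9 tested neutrophil genes 4 lay above 0, none was called by limma (1 at an unadjusted p under 0.05), and the median was −0.12. The defining marker Ly6g had at most 2 reads in each of the 6 tumors. Pydc3, of the PYHIN family of DNA sensors, was named after its values were seen, at 4.89, 2.01 and 2.51 against 41.9, 19.2 and 35.8, or 10.3-fold apart (log2 fold change −3.0 ± 0.60 SE, limma adjusted p = 0.0736 and 0.000839 from DESeq2). The family did not share this, since of 9 tested PYHIN genes 5 lay above 0 and 4 below, with a median of 0.02. None was called by limma (1 at an unadjusted p under 0.05) and 1 by DESeq2, and 1 did not overlap on each side. Xcr1, a defining marker of cross-presenting dendritic cells, had 4, 22 and 19 reads in wild type and none in the others, at least 2.63-fold higher (exact permutation p = 0.1). Of 8 tested dendritic cell genes 6 lay above 0, with a median of 0.34. None was called by limma (0 at an unadjusted p under 0.05) or DESeq2, and 0 did not overlap. The summed level of that list overlapped, at 1830 to 2101 in wild type and 1526.5 to 2171 in the others.

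Mylk, the kinase that makes smooth muscle contract (chromosome 16, 34745210 to 35002420, plus strand), was 4.49-fold higher in wild type. It stood at 312, 238 and 237 normalized counts there and at 34.0, 76.6 and 64.5 in the tumors labelled RAG1−/−, with no overlap (log2 fold change 2.21 ± 0.38 SE, limma adjusted p = 0.0463, 0.0640 with the replicate number as a block in the 12 tumors). Npr1, the receptor of atrial natriuretic peptide, which relaxes vessels (chromosome 3, 90450591 to 90465866, minus strand, with 11.7% of its exonic bases opposite Gm16048), was 14.3-fold higher. It had 56.7, 38.3 and 74.1 in wild type and 2.62, 2.13 and 7.07 in the others (2, 1 and 16 reads), a log2 fold change of 3.62 ± 0.63 SE (limma adjusted p = 0.0463).

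Of 11 tested smooth muscle and pericyte genes 10 lay above 0, with Mylk called by limma and 4 by DESeq2. In this list 7 did not overlap, all on the high side, where 7.08% of all genes tested did so. The median was 1.82 and ranged from 1.35 to 2.25 with single tumors left out. Acta2, smooth muscle actin, had 716, 1464 and 422 normalized counts against 143, 368 and 188 (log2 fold change 1.82 ± 0.46 SE, limma adjusted p = 0.146, 0.0079 with the replicate block in the 6 late tumors alone). Cspg4, the gene of NG2 on pericytes, had 537, 458 and 493 against 196, 272 and 295 (log2 fold change 0.98 ± 0.21 SE, limma adjusted p = 0.0974), but MC38 cells in culture also had 351 and 332. Tagln, an actin-binding protein of smooth muscle named after its values were seen, had 87.0, 113 and 36.4 against 5.24, 34.0 and 9.28. Myh11, the smooth muscle myosin, had 7.82, 32.9 and 4.39 against 0, 4.26 and 0.884. Rgs5, the pericyte marker, overlapped at 335, 647 and 239 against 147, 496 and 250.1. Replicate 2 was the highest tumor of its group for Acta2, Tagln, Myh11 and Rgs5 in both hosts.

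Vessel and matrix genes mostly lay on the same side. All 15 tested endothelial genes were above 0, with a median of 0.80 (0.47 without replicate 1 of the tumors labelled RAG1−/−). Of these, 3 did not overlap, all on the high side, where 7.08% of all genes tested did so. None was called by limma (5 at an unadjusted p under 0.05) or DESeq2. Pecam1 had 198, 271 and 185 normalized counts against 79.9, 157 and 115 (log2 fold change 0.92 ± 0.29 SE, limma adjusted p = 0.287). Flt1, a VEGF receptor, had 416, 552 and 320.2 against 189, 345 and 265, and Cdh5, the cadherin of endothelial junctions, 136, 313 and 161 against 113, 155 and 107. Of 29 tested collagen and fibroblast genes 27 lay above 0, with a median of 0.67 (0.37 without replicate 1 of the tumors labelled RAG1−/−). In that list 5 did not overlap, all on the high side, against the same 7.08% of all genes tested. None was called by limma and 1 by DESeq2. In limma 15 had an unadjusted p under 0.05, 13 above 0 and 2 below, where 10.8% of all genes tested had one. Col1a1 had 5327, 11095 and 2680.2 against 731, 4592 and 1463 (log2 fold change 1.67 ± 0.58 SE, limma adjusted p = 0.325, 0.0403 with the replicate block in the 6 late tumors alone). Fn1, fibronectin, had 14383, 8622 and 28825 against 4958, 7424 and 10668 (1.06 ± 0.35 SE, limma adjusted p = 0.306), and Sparc 20109 to 26493 against 12458 to 18739.9 (0.48). Col3a1 overlapped, at 12949.8 to 18468 against 4933 to 19076.

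Skeletal muscle genes, which a subcutaneous tumor can hold from the body wall, were above 0 for 16 of 17 with a median of 2.61, but they were carried by replicates 2 and 3 of wild type. Acta1 had 17.6, 637 and 665 normalized counts in wild type and 30.1, 36.2 and 10.6 in the others, and Ckm 0.977, 64.5 and 59.0 against 6.55, 0 and 3.53. Both overlapped (limma adjusted p = 0.47 and 0.593 from limma). The median was 3.99 without replicate 1 of wild type and 1.8 without replicate 2. The summed level was 2276 to 4165 in wild type and 2034 to 2365 in the tumors labelled RAG1−/−, and its part in the smooth muscle and collagen results was not tested.

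**Figure D3:**
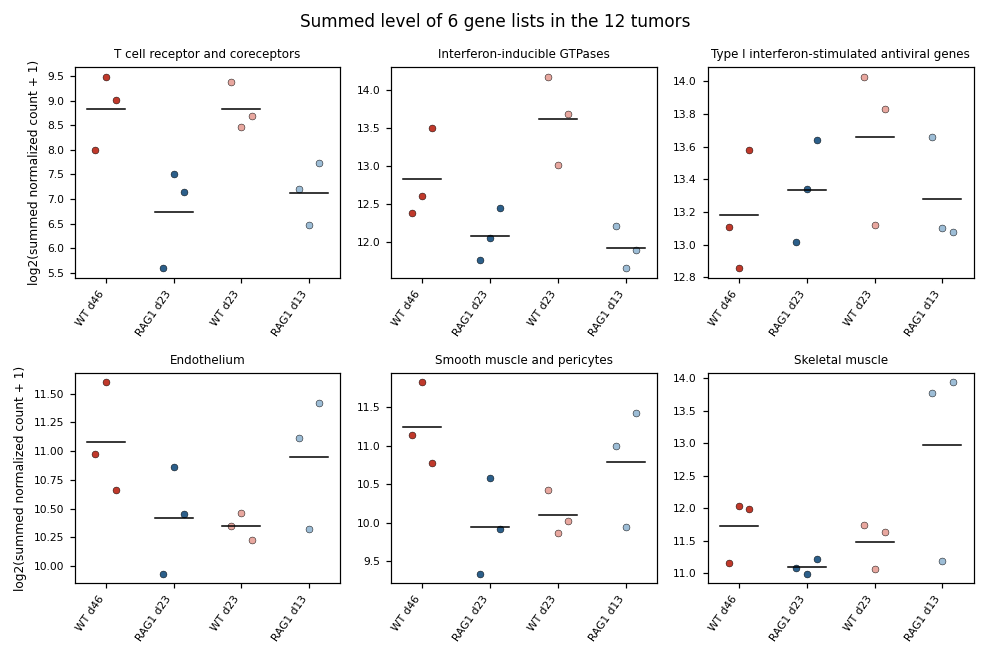
Summed normalized counts of 6 gene lists in each of the 12 tumors, as log2(sum + 1) on axes that do not start at 0, with the mean of each group as a line. The wild-type tumors of day 46 lie above the tumors labelled RAG1−/− of day 23 for T cell and smooth muscle genes, the antiviral list overlaps, and skeletal muscle sums are highest in 2 tumors labelled RAG1−/− of day 13. The T cell sum includes Thy1, which fibroblasts also carry.

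Among the 4 genes lower in wild type, Tnfrsf26 had the tightest values. This receptor of the TNF family (chromosome 7, 143607659 to 143628722, minus strand) had 441, 434 and 459.6 normalized counts in wild type and 1060.4, 970.3 and 889 in the tumors labelled RAG1−/−, 2.19-fold apart (log2 fold change −1.12 ± 0.14 SE, limma adjusted p = 0.00389). MC38 cells in culture had 979.7 and 1004, as high as the latter. Epha7, an ephrin receptor kinase (chromosome 4, 28813131 to 28967499, plus strand), had 20.5, 24.2 and 8.79 in wild type and 170.2, 80.9 and 128.6 in the others, 7.10-fold apart (log2 fold change −2.81 ± 0.40 SE, limma adjusted p = 0.00852). Its level in MC38 cells was 101 and 115.

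Id4, an inhibitor of basic helix-loop-helix factors (chromosome 13, 48261228 to 48266026, plus strand), was 4.34-fold lower in wild type, at 202, 208 and 534 normalized counts against 1964, 1268 and 863. The spread within each host was more than in Tnfrsf26, but the groups did not overlap (log2 fold change −2.19 ± 0.37 SE, limma adjusted p = 0.0463, 0.0631 with the replicate block in the 12 tumors). MC38 cells had 200.2 and 309, near the wild-type tumors. Khdrbs2, an RNA-binding protein of splicing (chromosome 1, 32172714 to 32658568, plus strand), was 8.23-fold lower at 4.89, 11.4 and 25.1 against 169, 115 and 57 (log2 fold change −3.08 ± 0.53 SE, limma adjusted p = 0.0463, 0.0712 with that block). Cultured cells had 282 and 244, above all 6 tumors.

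Genes were also grouped by their level in the 2 libraries of MC38 cells in culture, which took no part in the fit. The 773 tested genes without a read in MC38 had a median log2 fold change of 0.64 between the late tumors, and 78.3% lay above 0. For 1256 genes read in MC38 at a mean under 5 the median was 0.47 and 72.1% lay above 0. It was 0.07 for 4081 genes from 5 to under 100 and −0.03 for 8636 genes of 100 or more, of which 45.4% lay above 0. All 4 lower calls were in the last class, and 6 of the 8 higher calls were in the first and second. In the early comparison, wild type day 23 against RAG1−/− day 13, the medians of the same classes were −0.26, −0.07, 0.01 and 0.00.

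**Figure D4:**
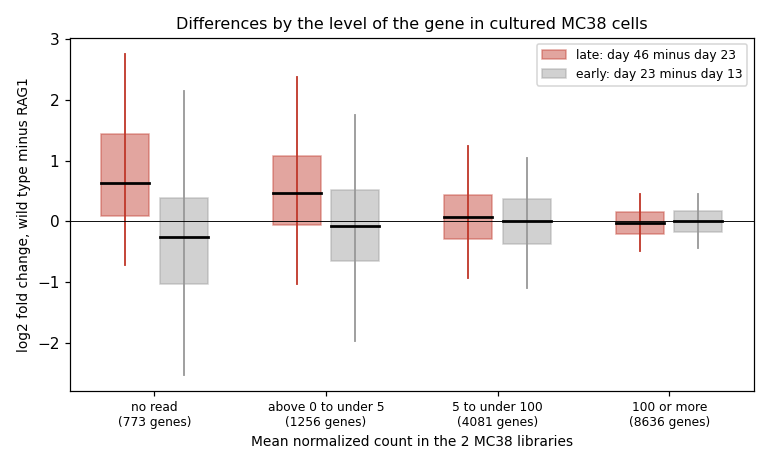
Distribution of log2 fold changes (wild type minus RAG1−/−) by the mean normalized count of a gene in cultured MC38 cells, with boxes from the first to the third quartile, whiskers from the 5th to the 95th percentile and the median as a line. The late median (red) goes from 0.64 in genes without a read in MC38 to −0.03 in genes of 100 or more, and the early median (grey) from −0.26 to 0.00.

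Growth genes had medians slightly below 0. Of 38 tested cell cycle genes 15 lay above 0 with a median of −0.04. In that list 3 did not overlap on each side, near the shares of all genes tested (7.08% higher and 5.87% lower). Of 37 DNA replication genes 12 lay above 0 with a median of −0.13. In the replication list 5 did not overlap on the low side, where 5.87% of all genes tested did so. None was called by limma (6 and 5 at an unadjusted p under 0.05), and DESeq2 called 1 of each. In the early comparison 15 of the 37 replication genes did not overlap on the low side (8.98% of all genes tested early), with a median of −0.14. Pcna, the sliding clamp of replication, was named after its values were seen and had 1773, 2096 and 1536 normalized counts in wild type and 3214, 2547 and 2707 in the others (log2 fold change −0.65 ± 0.15 SE, limma adjusted p = 0.114 and 0.0117 from DESeq2). Cdk1, the kinase of mitosis, had 3547, 4803 and 2872 against 6965, 5107 and 4821, without overlap (log2 fold change −0.60, limma adjusted p = 0.295). Glycolysis and hypoxia genes had a median of −0.13 over 26 tested, with Ldha at 21139.8 to 29060.3 against 22076 to 42095 and Pkm at 18162 to 24551 against 17540.3 to 20351.

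The late comparison was set beside the early one, which shares no tumor with it. Early, 39 genes were called (0.264%), 36 with higher (0.244%) and 3 with lower levels in wild type (0.0203%). The early groups did not overlap for 18.7% of the genes tested (9.68% higher, 8.98% lower), and 49.4% lay above 0. Of the 8 genes higher late, 5 were called in both (62.5% of the late list and 13.9% of the early list), namely Cxcl9, Igkc, Igha, Iigp1 and Ly6a. Their early log2 fold changes were 4.65, 6.97, 3.90, 3.13 and 2.09. None of the 4 genes lower late was called early, and 2 of them had the same sign. No gene passed the test of the difference between late and early in limma (1279 or 8.67% at an unadjusted p under 0.05) or edgeR, and DESeq2 called 58.

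Several late genes had little early difference. Npr1 was at 13.1 ± 7.05 normalized counts in wild-type tumors of day 23 and 17.05 ± 12.0 in tumors labelled RAG1−/− of day 13 (SD, n = 3 each), so that late minus early was 3.85 ± 0.90 SE in log2 units (limma adjusted p = 0.29). For Mylk it was 1.95 (SE 0.54, limma adjusted p = 0.395), for Epha7 −2.87 (SE 0.56, limma adjusted p = 0.254) and for Id4 −2.48 (SE 0.52, limma adjusted p = 0.262). Epha7 had 80.4 ± 20.5 and 76.4 ± 17.6 in the early tumors, and Id4 474 ± 150 and 388 ± 128, in the same order. In the smooth muscle list 8 of 11 genes had an unadjusted limma p under 0.05 for late minus early, where 8.67% of all genes tested had one. The smallest limma adjusted p was 0.205, for Tagln, and the list's median was −1.08 early. Endothelial genes had an early median of −0.46, collagens −0.04 and skeletal muscle −3.26, against 0.80, 0.67 and 2.61 late. The early tumors labelled RAG1−/− were uneven. Replicates 1, 2 and 3 of day 13 summed to 14046, 2329 and 15698 for skeletal muscle. They summed to 2039, 981 and 2737 for smooth muscle and to 2215, 1278 and 2733 for endothelium. Wild-type tumors of day 23 had 2145 to 3421, 937 to 1370 and 1198 to 1410 in the same order. The part of replicates 1 and 3 in the early medians was not tested.

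Medians of interferon-linked lists had the opposite order, though none of their genes passed the limma test of late minus early. GTPases had a median of 1.91 early with 8 of 19 called, and 0.90 late with 1 called, and MHC class I genes 0.89 early with 8 of 24 called, and 0.51 late with none called. Antiviral genes had 0.35 early and −0.16 late. For late minus early 8 of 19 GTPase, 4 of 24 MHC class I and 3 of 31 antiviral genes had an unadjusted limma p under 0.05. Of all genes tested 8.67% did. The smallest limma adjusted p in these lists were 0.395, 0.365 and 0.510 in the same order. For T cell genes the medians were 2.83 and 2.80, and for immunoglobulins 3.83 and 3.73. Car9, the carbonic anhydrase induced by hypoxia, was named after its values were seen, with 518, 388 and 478 against 716, 338 and 785 late and 864, 696 and 579.9 against 154, 203 and 136 early (late minus early −2.44 ± 0.39 SE, limma adjusted p = 0.148).

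Steps in time within a host gave no call in limma, either from day 23 to day 46 in wild type (1261 genes or 8.55% at an unadjusted p under 0.05) or from day 13 to day 23 in tumors labelled RAG1−/− (1722 or 11.7%). edgeR also called 0 in both, and DESeq2 called 43 and 206. Npr1 went by 2.11 on the log2 scale over the wild-type step (limma adjusted p = 0.413) and by −1.74 over the other (limma adjusted p = 0.303), and Id4 by −0.70 (limma adjusted p = 0.632) and 1.78 (limma adjusted p = 0.167). Epha7 went by −2.19 in wild type (limma adjusted p = 0.285) and by 0.68 in the tumors labelled RAG1−/− (limma adjusted p = 0.532).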

How the data were processed

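RNA from 16 libraries was measured by the authors with QuantSeq 3′ kits. Per the labels and the study's methods, reads were trimmed with cutadapt and Trimmomatic, aligned to mm10 with STAR and Bowtie2, counted with HTSeq and divided by DESeq2 size factors. The deposited signal is this normalized count, and versions, annotation and strand setting are not given in the sources used here. Reads without molecular identifiers are not independent molecules, so floors cover counting error only, and without a known strand setting reads of opposite genes cannot be told apart. In every library 100% of values were whole multiples of what 1 read is worth (tolerance 0.01 reads), so reads were recovered.

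The test was limma 3.58.1 (R 4.3.3) with a mean-dependent trend on log2(normalized count + 1), which understates the change of low genes, over 12 tumors in 4 groups, with a threshold of 0.05. edgeR 4.0.16 and DESeq2 1.42.0 ran on recovered reads as alternatives, beside other pseudocounts, filters, scalings, a fit without trend or on 6 tumors, the replicate block and single tumors left out. Methods were tested on simulated data. Same-numbered late tumors deviated together (correlations 0.105, 0.208 and 0.135), and the number served as a block in alternative fits only. The labels do not say what it marks. Between wild-type tumors of day 23 and day 46 the same-number correlations were −0.116, −0.018 and −0.017. Replicate 3 of RAG1−/− day 13 and replicate 2 of wild-type day 46 reached 0.201. Values with the block thus rest on a pairing that is not established. Same-numbered tumors are different mice, 1 tumor each as far as the labels tell, and no 2 libraries were copies.

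Members and gene lists were chosen with earlier results of these data known. The text names Rag1, the called genes (up to 15 per direction by fold among those without overlap), up to 3 of the most abundant other members of each list, defining markers and checkpoint genes, and marks others as chosen afterwards. Positions come from GENCODE for GRCm38, the build of mm10, and promoters from RefSeq for GRCm38.p6, which held 7 of the 12 called genes. The 6 anti-PD-L1 and IgG2b samples were not used here, and some genes are not reported here.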

Additional observations from a re-analysis of the deposited data

How the results depend on the processing

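Each result was recomputed with 1 choice changed at a time, except that the replicate block was also run in the 6 late tumors alone, which changes 2. Cxcl9, Igkc and Igha were called in 18 of 18 alternatives. Higher genes numbered 4 with a pseudocount of 0.1, 4 without a filter, 5 without the trend, 105 with DESeq2, 4 with edgeR and, in an alternative added after seeing the data, 45 with the replicate block in the 6 late tumors alone. Lower genes numbered 2, 2, 3, 67, 2 and 13 in the same order, 8 with a pseudocount of 5, 2 after rescaling to the same total and 0 in the 6 late tumors alone, where 1094 genes had an unadjusted p under 0.05 in limma. With the replicate block in the 12 tumors 11 were higher and 3 lower, and of the 12 called genes it lost Id4, Mylk and Khdrbs2 and no other. Of the other single genes recomputed it called H2-Q6, H2-Q7 and Il1b and no more. Leaving out each tumor gave 3 to 28 higher and 1 to 11 lower. Without replicate 1 of the tumors labelled RAG1−/− the counts were 3 and 1, without replicate 2 they were 18 and 4, and without replicate 3 they were 28 and 11. Without wild-type replicates 1, 2 and 3 they were 6 and 2, 4 and 2, and 9 and 9. Late against early gave 58 with DESeq2 and 0 to 3 with single tumors left out, the wild-type step in time 43 and 0 to 7, and the other step 206 and 0 to 4. The causes were not tested.

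Of 1337 values of 75 single genes 1221 kept direction and side of the threshold, 69 fell short of it, 40 passed it and 7 turned in sign. These were Rsad2 (−0.29 to 0.12 with single tumors left out, above 0 at 0.03 without wild-type replicate 2 and at 0.12 without replicate 3 of the tumors labelled RAG1−/−), Adgre1 (−0.31 to 0.04, above 0 without wild-type replicate 1), Lyz2 (−0.053 to 0.41, below 0 without wild-type replicate 2 and, at −0.029, without replicate 1), Col3a1 (−0.26 to 0.71, below 0 without replicate 1 of the tumors labelled RAG1−/−) and Hba-a1 (−0.71 to 2.17, below 0 without wild-type replicate 3). Genes near the floor of 3 reads in replicate 2 of the tumors labelled RAG1−/− (6.38 normalized counts) are the least certain.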

Other observations

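Blood and stromal genes outside the comparisons above varied between single tumors. Hba-a1, a hemoglobin chain, ran at 277, 2999.9 and 14968 normalized counts in late wild-type tumors and at 1379, 955 and 2527 in late tumors labelled RAG1−/−, and the summed level of red cell genes was 1409 to 51692 against 4056 to 9644. Mast cell, basophil and eosinophil genes had all 6 tested members above 0 with a median log2 fold change of 1.23 late and −1.30 early, none called by limma (1 at an unadjusted p under 0.05 late) or DESeq2, and Cpa3, a mast cell protease, overlapped at 8.80, 28.9 and 52.1 against 3.93, 46.8 and 8.84. Adipocyte genes had a median of 1.01 over 7 tested, keratinocyte genes 0.42 over 14 and immediate early genes −0.06 over 18, with no call in limma or DESeq2.

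The hosts also differ by substrain. Nnt, which the J substrain carries in a truncated form, had 419, 427 and 622 normalized counts in wild type and 689.9, 634 and 737 in the tumors labelled RAG1−/−, without overlap (log2 fold change −0.51 ± 0.18 SE, limma adjusted p = 0.327), while MC38 cells in culture had 829.9 and 836. Within 10 Mb of Rag1 75 genes were tested, none was called by limma, and 12 did not overlap (16%, against 12.9% of all genes tested). The one with the smallest p was Bdnf, named after its values were seen, at 817, 923 and 1008 against 2339.5, 1868 and 1357 (log2 fold change −0.99, adjusted p = 0.0727 from limma).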
